A study of Mus musculus with 9 samples.

Results

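Granins are acidic, heat-stable proteins that aggregate with calcium in the trans-Golgi network and are packed, together with peptide hormones, into the dense-core granules of endocrine cells and neurons. Several are cut at paired basic residues into smaller peptides, and others act as chaperones, inhibitors or sorting factors for the convertases that mature the hormones. In islets they are made by beta cells and by the other endocrine cells alike. The 9 genes examined here encode granins and other proteins of neuroendocrine granules. Among them were the chromogranins *Chga* and *Chgb*, the secretogranins *Scg2*, *Scg3* and *Scg5*, the neuropeptide precursor *Vgf* and the convertase inhibitor *Pcsk1n*. The set was completed by *Ptprn* and *Ptprn2*, which encode the granule membrane proteins IA-2 and IA-2β. Probe sets were paired with these genes by the annotation of the array alone, without any measured value. The genes themselves were chosen with earlier results of these data known. All probe sets paired with exactly 1 of these symbols were taken, which gave 10 probe sets out of 45037, and all 9 genes were among the 18193 genes of the table and among the 13644 left after the lowest fraction of 0.25 by mean signal had been removed.

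The islets came from 8-week-old male mice. βRapKO mice carried 2 floxed *Raptor* alleles and a Cre transgene under the rat insulin promoter (*Raptor* flox/flox RIP-Cre), so that the loss of *Raptor*, which encodes the scaffold of the kinase complex mTORC1, was directed to insulin-expressing cells, and WT mice were littermates with the same floxed alleles and without Cre. The labels give C57BL/6 as the strain, while the Cre line was of a mixed genetic background. Each array held RNA pooled from the islets of 5 animals of 1 genotype, and 4 βRapKO and 5 WT pools were hybridised to Affymetrix mouse genome arrays. No WT group with Cre alone was analysed here, so an effect of the transgene and one of the deletion cannot be told apart. Values are log2 signals, differences are βRapKO minus WT, and a gene was called when its adjusted p was under 0.05 in limma with Benjamini-Hochberg correction over 13644 genes. An array reads a whole islet, so fewer cells of a type and less RNA per cell cannot be told apart.

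Promoter sequence of 3 classic granins is shown because they share a short element close to their starts. The cyclic AMP response element, with the palindrome TGACGTCA as its full form, is a known feature of granin promoters. RefSeq windows of GRCm38.p6, from 250 bases before to 50 bases after an annotated start, were found for 8 of the 9 genes (9 windows, 2 of them of *Ptprn*). No window was at hand for *Vgf*, so its promoter was not examined. The full palindrome lay 72 bases before the start of *Chgb* and 68 bases before that of *Scg2*, and in none of the other 7 windows, against 1.79% of the 32851 promoter windows of the genome. Its 5-letter core TGACG, searched on both strands and held by the palindrome in both directions, was present in 6 of the 9 windows and in 20.81% of all windows. *Chga* had it 44 bases before its start, *Scg3* 30 bases and *Ptprn* 117 and 80 bases before theirs, and *Scg5* 175 bases before and 20 and 41 bases after its start, while neither *Ptprn2* nor *Pcsk1n* had it in its window. A match of letters is a description and not a binding site. The last 100 bases before the start of the 3 genes follow, on the strand of each gene, with the core or the full palindrome in capitals.
Chga (chr12:102554841-102554940, plus strand): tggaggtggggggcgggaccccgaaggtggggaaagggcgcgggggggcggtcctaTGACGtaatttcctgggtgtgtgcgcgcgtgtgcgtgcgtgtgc
Chgb (chr2:132781542-132781641, plus strand): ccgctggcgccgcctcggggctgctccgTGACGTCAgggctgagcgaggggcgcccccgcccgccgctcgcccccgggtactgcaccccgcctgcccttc
Scg2 (chr1:79440027-79440126, minus strand): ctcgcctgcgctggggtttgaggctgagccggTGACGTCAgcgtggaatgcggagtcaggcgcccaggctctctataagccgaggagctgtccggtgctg

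A single gene of the set, *Vgf*, passed the test, and the other 8 differed by at most 1.20-fold. Of the 9 genes 1 was called, and it was higher in βRapKO islets, whereas 6.30% of all tested genes were called (3.67% higher and 2.63% lower). A count of 1 call among 9 genes is too few to tell the set apart from that background. The groups did not overlap for 3 of the 9 genes, *Vgf*, *Chgb* and *Ptprn2*, against 12.5% of all tested genes. Differences were positive for 6 and negative for 3 of the 9, and their median was 0.02, beside 0.04 over all tested genes. Median centring of the arrays turned the split of calls over all genes to 214 higher and 260 lower, in place of 501 and 359, and left the *Vgf* call. When every probe set was fitted by itself, 1 of the 10 probe sets was called, against 2.29% of the 26208 probe sets tested. At an unadjusted p under 0.05, limma gave 3 of the 9 genes and 21.8% of all tested genes.

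**Figure D1:**
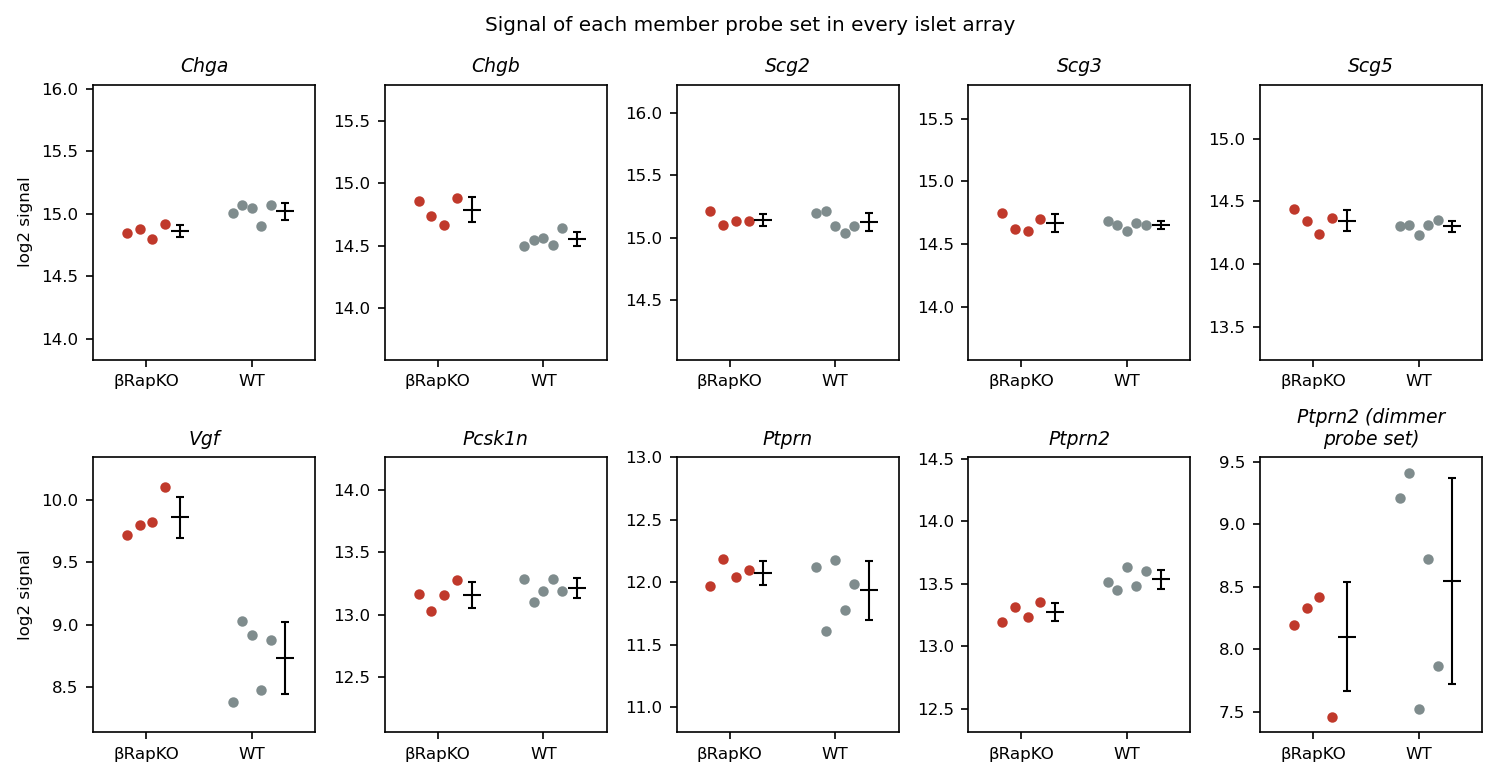
Log2 signal of the 10 probe sets of the 9 genes in each array of βRapKO (red, 4 arrays, left) and WT (grey, 5 arrays, right) islets. Black marks give group means with their SD, and all panels cover an equal log2 range. *Vgf* lay between 9.72 and 10.10 in βRapKO islets and between 8.38 and 9.03 in WT islets, whereas the signals of *Scg2*, *Scg3* and *Scg5* overlapped.

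*Vgf* encodes a precursor that is cut into several secreted peptides, and its transcript is known to respond to nerve growth factor and to cyclic AMP in neurons. Its only probe set read 9.72, 9.80, 9.82 and 10.10 in the βRapKO arrays, against 8.38, 9.03, 8.92, 8.48 and 8.88 in the WT arrays. Every βRapKO pool was above every WT pool. The mean was 9.86 ± 0.17 (SD, n = 4) in βRapKO and 8.74 ± 0.29 (SD, n = 5) in WT islets, so that log2 signals were 1.12 ± 0.16 (SE) apart. This was 2.18-fold, with a 95% interval of 1.70- to 2.80-fold (limma adjusted p = 0.00580). By p, *Vgf* stood at place 139 of the 13644 genes. The call held when any 1 array was left out, with differences of 1.03 to 1.20, and under both rescalings of the arrays. It was lost when the mean of the fibroblast and pericyte markers of each array entered the fit as a covariate, called the stromal covariate here (0.87 ± 0.33, limma adjusted p = 0.355). Under this setting 3 of all 13644 genes were called. The stromal mean did not overlap between the genotypes, so this fit cannot tell a stromal part from the genotype.

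**Figure D2:**
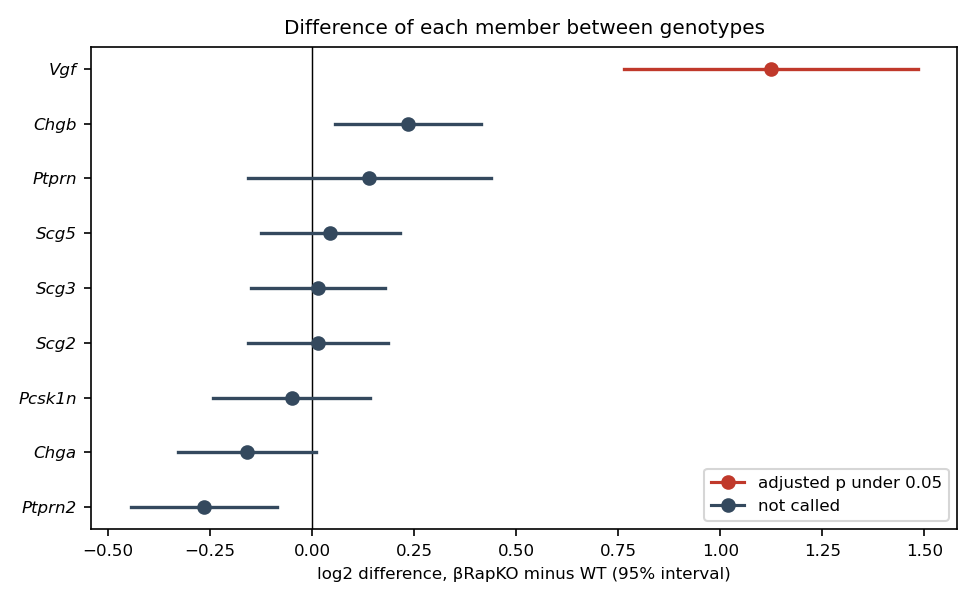
Log2 difference of each of the 9 genes between βRapKO and WT islets (points) with its 95% interval (lines), ordered by difference, with the called gene in red. *Vgf* differed by 1.12, and the other 8 genes lay between -0.27 and 0.24.

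*Chga* and *Chgb*, the chromogranins that drive granule formation and bind calcium and catecholamines, had differences of opposite sign. *Chgb* read 14.86, 14.74, 14.67 and 14.88 in the βRapKO arrays and 14.50, 14.55, 14.56, 14.51 and 14.64 in the WT arrays. The lowest βRapKO value was just above the highest WT value. The means were 14.79 ± 0.10 in βRapKO and 14.55 ± 0.05 in WT islets (SD, n = 4 and 5), and the 0.24 ± 0.08 (SE) between them, 1.18-fold, did not pass the test (limma adjusted p = 0.118). *Chga* read 14.85, 14.88, 14.80 and 14.92 in the βRapKO arrays and 15.01, 15.07, 15.05, 14.90 and 15.07 in the WT arrays. Here 3 βRapKO pools were below all WT pools, and the remaining one lay just above WT replicate 4. The difference was -0.16 ± 0.08 (SE), with a 95% interval of -0.33 to 0.01 (limma adjusted p = 0.260). The call for *Chgb* depended on how the variance was estimated. With a prior that follows the signal level it was called (limma adjusted p = 0.0319, SE 0.06), and so it was with the methods' t-test (adjusted p = 0.0470 after Benjamini-Hochberg, SE 0.05), whereas with the stromal covariate the difference was 0.06 ± 0.15.

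*Ptprn2* and *Ptprn* encode phosphatase-like proteins that span the granule membrane, and both are major autoantigens of type 1 diabetes. *Ptprn2* read 13.19, 13.31, 13.23 and 13.35 in the βRapKO arrays and 13.51, 13.45, 13.63, 13.48 and 13.60 in the WT arrays. All βRapKO values were below all WT values. The means were 13.27 ± 0.07 in βRapKO and 13.54 ± 0.08 in WT islets (SD, n = 4 and 5), and they were 1.20-fold apart, at -0.27 ± 0.08 (SE) on the log2 scale (limma adjusted p = 0.0846). As for *Chgb*, the gene was called with the signal-dependent prior (limma adjusted p = 0.0231) and with the methods' t-test (adjusted p = 0.0324 after Benjamini-Hochberg), whereas with the stromal covariate the difference was -0.41 ± 0.16 and was not called (limma adjusted p = 0.356). A dimmer probe set of *Ptprn2* read 8.19, 8.33, 8.42 and 7.46 in βRapKO and 9.21, 9.41, 7.52, 8.72 and 7.87 in WT islets. Its groups overlapped widely, and its difference of -0.45 ± 0.42 (SE) had the same sign with an interval from -1.39 to 0.50. *Ptprn* read 11.97, 12.19, 12.04 and 12.10 in βRapKO and 12.12, 11.61, 12.18, 11.78 and 11.99 in WT islets. Its WT arrays spread more widely than its βRapKO arrays and enclosed most of them (0.14 ± 0.13, 95% interval -0.16 to 0.44, limma adjusted p = 0.595).

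**Figure D3:**
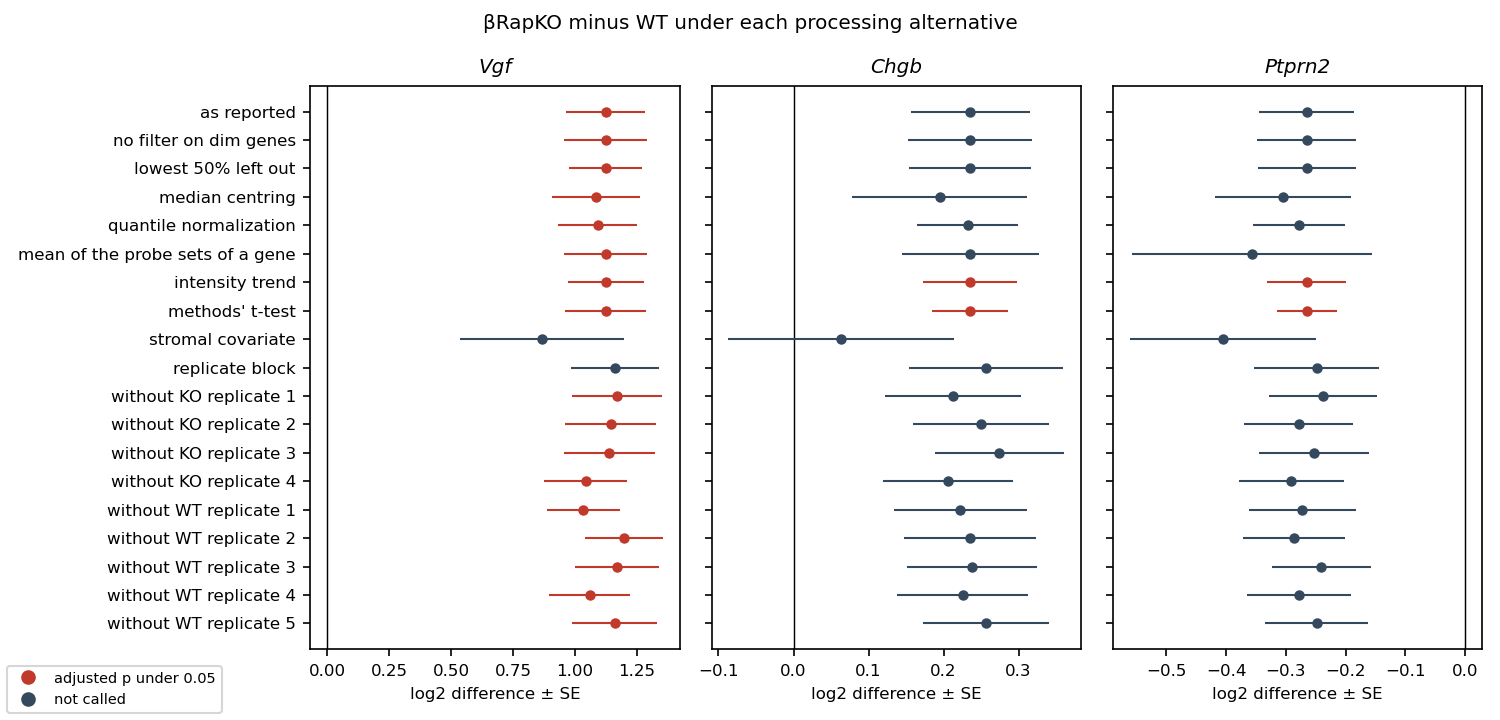
Log2 difference ± SE of *Vgf*, *Chgb* and *Ptprn2* between βRapKO and WT islets as reported and under each of the 18 processing alternatives, in red where the adjusted p was under 0.05; the horizontal scales differ between panels. *Vgf* was called in 16 of the 18 alternatives, and *Chgb* and *Ptprn2* in 2 each, while no gene of the 3 changed its sign.

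For the secretogranins the intervals were narrow around no difference. *Scg2*, the precursor of secretoneurin, read 15.21, 15.10, 15.13 and 15.13 in the βRapKO arrays and 15.20, 15.21, 15.09, 15.04 and 15.09 in the WT arrays. Its difference was 0.01 ± 0.08 (SE), and the 95% interval ran from 0.90- to 1.14-fold. *Scg3*, which ties chromogranin aggregates to the cholesterol-rich granule membrane, read 14.75, 14.62, 14.60 and 14.70 in βRapKO and 14.68, 14.65, 14.60, 14.67 and 14.65 in WT islets. Its interval of 0.90- to 1.13-fold was as narrow (difference 0.02 ± 0.07, limma adjusted p = 0.936). For both genes the βRapKO values fell among the WT values or close to them. Both probe sets read near the top of the scale, where the largest rise of any tested gene with a mean over 14 was 0.29, and whether a rise as large as that of *Vgf* could be measured there was not tested.

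The inhibitors and chaperones of the convertases did not pass the test either. *Scg5* encodes 7B2, the chaperone that the convertase PC2 needs to become active, and read 14.44, 14.34, 14.24 and 14.37 in βRapKO and 14.30, 14.31, 14.23, 14.31 and 14.35 in WT islets. The groups overlapped over most of their range (difference 0.04 ± 0.08, interval 0.92- to 1.16-fold, limma adjusted p = 0.796). *Pcsk1n* encodes proSAAS, an inhibitor of the convertase PC1, and read 13.17, 13.03, 13.16 and 13.28 in βRapKO and 13.29, 13.10, 13.19, 13.29 and 13.19 in WT islets. It differed by -0.05 ± 0.08 (interval 0.85- to 1.10-fold, limma adjusted p = 0.799), and its groups overlapped. Among the arrays no pool was high or low for the whole set. βRapKO replicate 3 was the lowest βRapKO array for 4 of the 9 genes and βRapKO replicate 4 the highest for 5 of 9, and among WT arrays replicate 2 was both lowest for 3 and highest for 3.

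Several of these genes are among the brightest of the array. *Chga*, *Chgb*, *Scg2*, *Scg3* and *Scg5* had means over 14 on the log2 scale, as did 79 tested genes in all, and the highest value of the table was 15.56. Among the 79 bright genes 4 were called lower and 0 higher by limma. This was 5.06% of them, beside 6.30% of all tested genes (3.67% higher and 2.63% lower). The differences of the 79 ran from -0.79 to 0.29. Whether a rise as large as that of *Vgf* could be measured at this level was not tested for any of the 5 members. In order of difference from the top, *Chgb* was at place 3 of these 79 and *Chga* at place 64, with *Scg5* at 22, *Scg3* at 29 and *Scg2* at 31. The replicates of these genes were tight. The SD within groups was 0.06 for *Chga*, *Scg2* and *Scg5*, 0.05 for *Scg3* and 0.08 for *Chgb* and *Ptprn2*, beside a median of 0.13 in the brightest decile of genes. It was 0.09 for *Pcsk1n* and 0.19 for *Ptprn*. For *Vgf*, which is dimmer, the SD was 0.25, beside a median of 0.23 over all tested genes. Within the decile of genes of like signal, the SD of *Vgf* stood at percentile 70.2 and that of *Ptprn* at 82.7. The other members stood at 2.1 to 22.6.

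The other genes of the granule were read by list, beside the 6.30% called over all tested genes. Of 17 tested genes for granule membrane and docking proteins 3 fell and 0 rose, with a median difference of -0.08. *Sytl4*, which encodes the docking protein granuphilin, averaged 12.26 in βRapKO and 13.45 in WT islets (-1.19 ± 0.08, limma adjusted p = 0.000217). The zinc transporter gene *Slc30a8* (13.58 in βRapKO and 14.36 in WT islets, -0.79 ± 0.08, limma adjusted p = 0.00158) and *Rab37*, a small GTPase of secretory granules (10.03 in βRapKO and 10.87 in WT islets, -0.84 ± 0.14, limma adjusted p = 0.0110) fell too. None of 12 genes for the formation and sorting of granules was called, the lowest p being that of *Hid1*, a factor of granule biogenesis (0.24 ± 0.11, limma unadjusted p = 0.0545, adjusted p = 0.241), and 3 had positive and 9 negative differences, between -0.29 and 0.24.

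Of 7 tested processing enzymes 1 rose. This was *Pam*, which amidates the carboxyl end of peptides (12.53 ± 0.10 in βRapKO and 12.00 ± 0.22 in WT islets, SD, n = 4 and 5; limma adjusted p = 0.0393). It was called in 5 of 18 alternatives. Of 12 tested peptide cargo genes 1 rose and 1 fell. *Ucn3*, the peptide urocortin 3 of mature beta cells, fell by 0.85 ± 0.12 on the log2 scale (limma adjusted p = 0.00571), and *Nucb2*, the precursor of nesfatin, rose by 0.50 ± 0.10 (limma adjusted p = 0.0197, called in 11 of 18 alternatives). The median differences of the enzymes and of the cargo genes were 0.09 and 0.01, beside 0.04 over all tested genes.

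**Figure D4:**
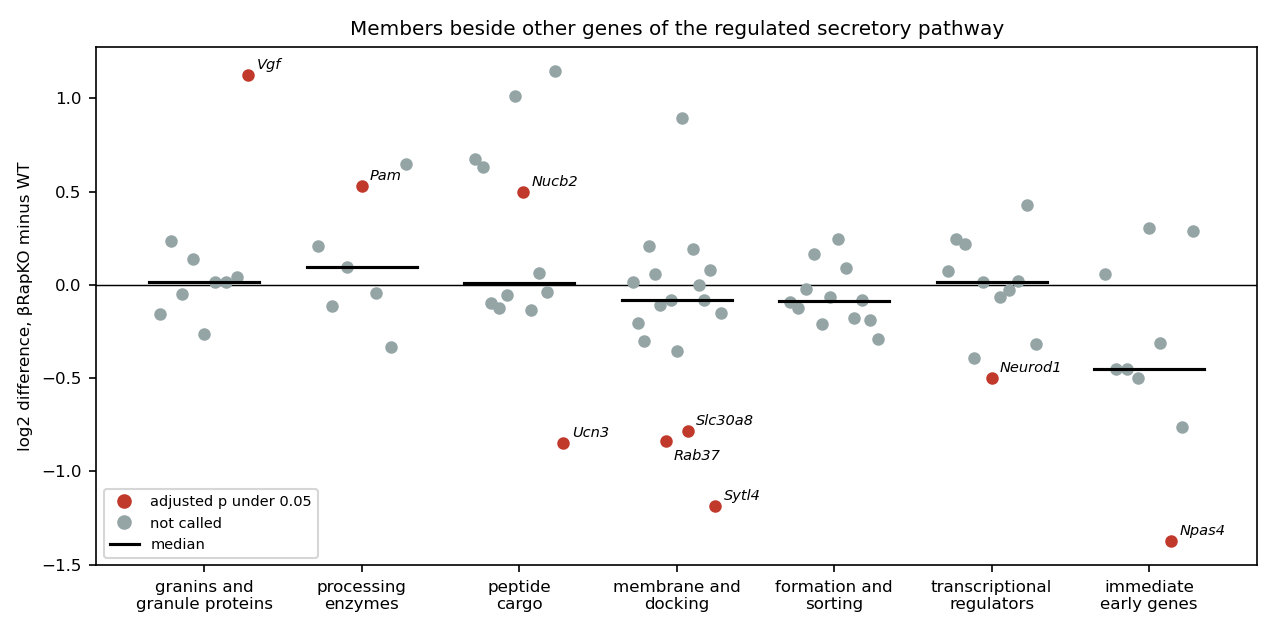
Log2 difference between βRapKO and WT islets of each tested gene (points) in 7 lists of the regulated secretory pathway, with called genes in red and named and the median of each list as a bar. *Vgf* was the called gene of the granins and granule proteins at 1.12, and *Sytl4*, *Rab37* and *Slc30a8* were the called genes of the membrane and docking list.

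Of 11 tested factors known to control neuroendocrine genes 1 fell, beside 6.30% of all tested genes called. This was *Neurod1*, a transcription factor of endocrine cells (12.95 ± 0.07 in βRapKO and 13.45 ± 0.15 in WT islets, SD, n = 4 and 5; limma adjusted p = 0.0212). *Rest*, the repressor of neuronal genes, read 6.91 ± 0.28 in βRapKO and 6.48 ± 0.42 in WT islets (limma adjusted p = 0.313), and *Crem* and *Creb1* of the cyclic AMP response differed by 0.24 ± 0.22 and 0.08 ± 0.19. *Rest*, *Crem* and *Creb1*, like *Fos* and *Fosb*, were singled out with their values in view. Of 9 tested immediate early genes, which neurons and endocrine cells switch on with activity, 1 fell and 0 rose, with a median of -0.45. *Npas4*, a transcription factor induced by depolarisation, averaged 6.56 ± 0.38 in βRapKO and 7.94 ± 0.53 in WT islets (limma adjusted p = 0.0284). It was called in 9 of 17 alternatives. The genes *Fos* and *Fosb* spread by SDs of 1.26 and 1.66 in βRapKO and 0.71 and 1.27 in WT islets, so that only a large change in them was detectable.

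The genes whose profiles over the 9 arrays were most like that of *Vgf* were all called higher, which the measure of likeness favours. Likeness was the root mean square difference of log2 values after each gene had been centred on its own mean, and the 5 nearest genes were *Ccn2* (0.16), *Mapk4* (0.19), *Bhlha15* (0.19), *Gucy2c* (0.19) and *St6galnac5* (0.19). *Ccn2*, a matrix-associated growth factor, differed by 1.14 ± 0.14 (SE). *Gucy2c*, the guanylin receptor, averaged 9.81 ± 0.21 in βRapKO and 8.86 ± 0.25 in WT islets (SD, n = 4 and 5). *Bhlha15*, a transcription factor of secretory cells, averaged 11.15 ± 0.10 in βRapKO and 10.23 ± 0.24 in WT islets, although a dimmer probe set of it differed by -0.90 ± 0.30 (SE, limma unadjusted p = 0.0173). *Mapk4*, an atypical MAP kinase, and *St6galnac5*, a sialyltransferase, differed by 1.26 and 1.02. Dimmer probe sets of *St6galnac5* differed by 0.22 ± 0.20 and 0.74 ± 0.28 (SE).

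Granins are shared by many cells of an islet, and the markers of several of these cells differed between the genotypes. Endocrine hormones were bright on all arrays, with *Ins2* at 14.10 in βRapKO and 14.15 in WT islets, *Gcg* at 15.20 in βRapKO and 15.30 in WT islets, and *Sst* at 15.17 in βRapKO and 15.21 in WT islets; these 3 were singled out with their values in view. The brightest probe set of *Rptor* averaged 8.75 ± 0.32 in βRapKO and 9.47 ± 0.21 in WT islets (SD, n = 4 and 5; limma adjusted p = 0.0410). The gene was called in 6 of 18 alternatives, and its 2 dim probe sets did not pass an unadjusted p of 0.05. The mean of 7 mature beta cell markers was 12.30 to 12.41 in βRapKO and 13.29 to 13.36 in WT islets, and 6 of the 7 fell, among them *Trpm5* and *Slc2a2* (-2.14 and -1.33). *Slc30a8* and *Ucn3*, whose falls are given above with the granule lists, are also among these 7. The mean of 10 fibroblast and pericyte markers was 9.96 to 10.64 in βRapKO and 8.49 to 9.58 in WT islets, with 6 of 10 called higher, among them *Lum*, *Postn*, *Dcn* and *Col1a2* (1.54, 1.68, 2.04 and 1.71). *Col1a2* was called in 6 of 17 alternatives, and *Dcn* in 14 of 17, with a difference of 0.66 where its probe sets were averaged. The means of 4 further cell types did not overlap either. For delta cells (4 markers, *Hhex* called) they were 11.38 to 11.63 in βRapKO and 10.86 to 11.22 in WT islets. Endothelial means (7 markers) were 10.07 to 10.41 in βRapKO and 9.68 to 9.96 in WT islets. None was called by limma, 1 had an unadjusted p under 0.05, and *Esam* had the lowest p (0.31 ± 0.09). Schwann and glial means (4 markers, *Cdh19* called) were 6.92 to 7.34 in βRapKO and 5.35 to 6.64 in WT islets. Ductal means (3 markers, *Krt19* not called) were 8.09 to 8.69 in βRapKO and 6.73 to 7.92 in WT islets. Taken singly, 1 of 4 Schwann and glial and 1 of 3 ductal markers did not overlap, and *Sox10* differed by -0.05 ± 0.57. *Krt7*, the brightest ductal marker, differed by 0.11 ± 0.09, while *Krt19* and *Sox9* fell to 3.08 and 1.66 in single WT arrays. *Sox10*, *Krt7* and *Sox9* were singled out with their values in view.

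Peripheral neurons also make *Vgf* and chromogranins. Of 7 tested neuronal markers 1 was called higher and 1 lower. At an unadjusted p under 0.05, limma gave 6 of the 7, beside 21.8% of all tested genes. The groups did not overlap for 5 of the 7, beside 12.5% of all tested genes. Differences were positive for 4 and negative for 3, with a median of 0.94. *Prph*, the neuronal filament peripherin, averaged 9.67 in βRapKO and 8.04 in WT islets (limma adjusted p = 0.0414, called in 4 of 18 alternatives), and its 3 dimmer probe sets differed by -0.18, -0.45 and 0.30. *Th*, the rate-limiting enzyme of catecholamine synthesis, averaged 8.95 in βRapKO and 10.18 in WT islets (limma adjusted p = 0.0120). The mean of the 7 was 8.21 to 8.52 in βRapKO and 7.06 to 8.34 in WT islets. By array, the neuronal mean was 8.21, 8.27, 8.52 and 8.25 in βRapKO and 7.95, 7.06, 8.34, 7.76 and 7.99 in WT islets. The stromal mean was 10.64, 10.31, 9.96 and 10.39 in βRapKO and 8.49, 8.55, 9.41, 8.87 and 9.58 in WT islets. Arrays are listed here by replicate number, as for the *Vgf* values above. Alpha cell (11.66 to 11.90 in βRapKO and 11.24 to 11.77 in WT islets, *Irx2* with the lowest p and not called), PP cell (15.01 to 15.21 in βRapKO and 14.97 to 15.24 in WT islets, *Ppy* not called), macrophage (8.96 to 9.52 in βRapKO and 8.91 to 9.06 in WT islets, *C1qa* called, and in 3 of 18 alternatives) and acinar means (8.82 to 13.96 in βRapKO and 9.47 to 13.92 in WT islets, *Cela2a* not called) overlapped. The part of these cells in the signals of *Vgf*, *Chgb* and *Ptprn2* was not tested. The fit with the stromal covariate cannot measure it, because the stromal mean did not overlap between the genotypes.

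**Figure D5:**
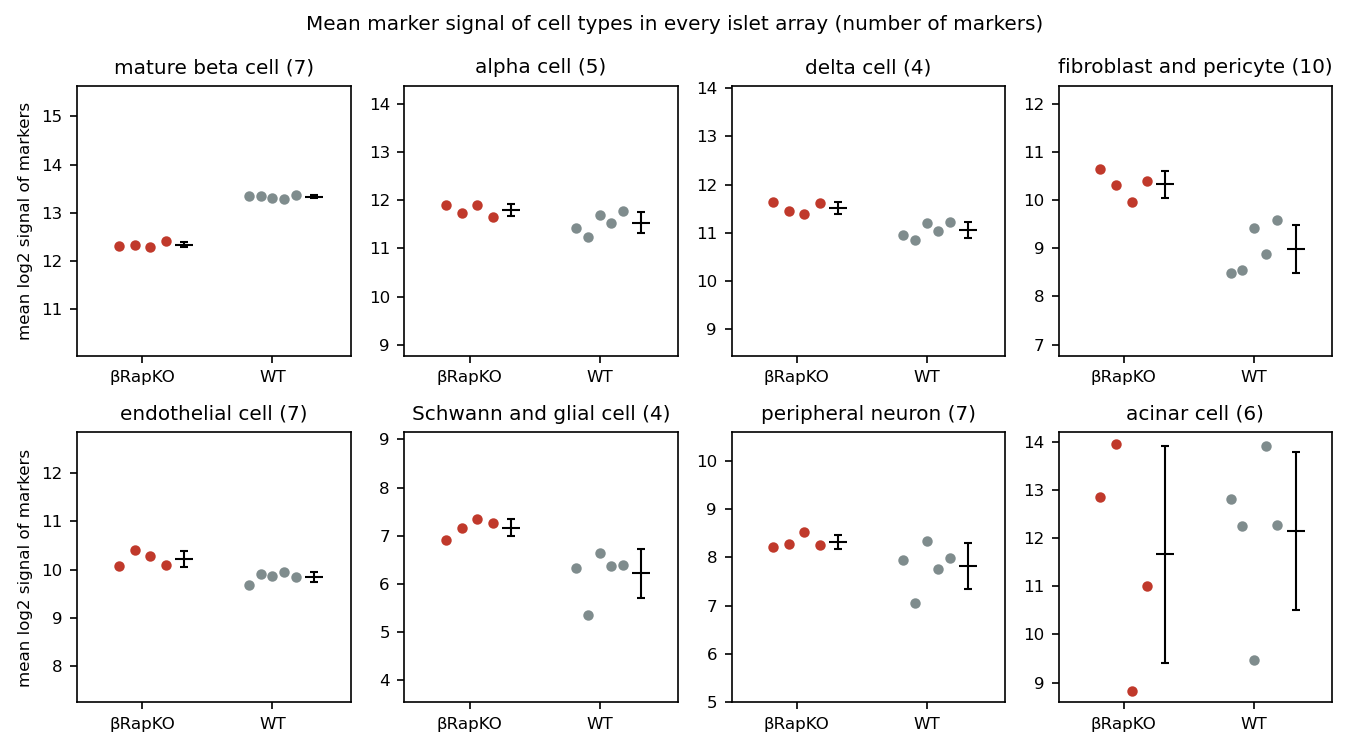
Average log2 signal over the markers of each of 8 cell types, by array, in βRapKO (red, 4 arrays, left) and WT (grey, 5 arrays, right) islets. Panel titles give the marker number, black marks the group mean with its SD, and all panels cover an equal log2 range. Stromal averages were 9.96 to 10.64 in βRapKO and 8.49 to 9.58 in WT islets, without overlap.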

How the data were processed

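The authors deposited 1 log2 signal per probe set and array. They ran the analysis in Genespring. For probe summarisation and scaling, the sources used here give no method. The trimmed mean of the linear signal was 497.1 to 497.7 on every array and 43 to 107 values per array lay at the floor of 0. Array medians were 6.85 to 7.05. Of 45037 probe sets, 34945 were paired with 1 gene, 932 with several and 9160 with none here. A gene was its brightest probe set, and values were used as deposited.

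The genotypes were compared by lmFit and eBayes of limma 3.58.1 under R 4.3.3, two-sided and without covariates. p-values reflect the spread between pools, whose number limits the precision. Genes named were the 9 members, *Rptor*, up to 4 called genes of each list or its gene with the lowest p, and the 5 nearest profiles; others are marked. Members and lists were chosen with earlier results of these data known. The fit was checked on simulated data. Promoter windows came from RefSeq (GRCm38.p6). No detection calls entered the analysis.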

Additional observations from a re-analysis of the deposited data

How the results depend on the processing

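The sign and the call were the same in all 18 alternatives for *Chga* and *Pcsk1n*. *Vgf* kept its sign in 18 and its call in 16. The members called numbered 3 with the intensity trend and with the methods' t-test, 0 with the stromal covariate and 0 with the replicate block, and the member probe sets 2, 2, 0 and 0 in the same order. All genes called numbered 452 without the filter, 474 with median centring (214 higher and 260 lower, in place of 501 and 359), 317 when probe sets were averaged by gene, 3 with the stromal covariate and 61 with the replicate block, and 372 to 800 with 1 array left out. Probe sets called numbered 339 without the filter, 1141 with the lowest 50% left out, 360 with median centring, 1171 with the intensity trend, 1 with the stromal covariate and 1 with the replicate block, and 193 to 496 with 1 array left out. Without any of βRapKO replicates 1 to 4 or WT replicates 1 and 2, both counts fell by over 1.5 times. Values near 0 turned their sign: *Scg2* (-0.026 with median centring, -0.0080 to 0.034 with 1 array left out), *Scg3* (-0.025 with median centring, -0.0091 with the stromal covariate, -0.013 to 0.039 with 1 array left out), *Scg5* (-0.029) and *Ptprn* (-0.065) with the stromal covariate, and *Ppy* (0.017 with quantile normalization). *Cela2a*, at -1.07 ± 1.51 (SE), ran from -2.14 to 0.35 with 1 array left out and was positive only without βRapKO replicate 3. *Cela2a* read 6.46 in that array and 10.87 to 13.96 in the other βRapKO arrays. The cause of the low reading was not tested. Replicate numbers are shared between the genotypes, but deviations of same-numbered arrays correlated by only -0.04 to 0.12 over genes, so the numbers do not pair the pools, and with the replicate block *Vgf* differed by 1.16 ± 0.18 (limma adjusted p = 0.0614). The methods' t-test called 761 genes higher and 333 lower at a fold of 1.5 and an unadjusted p under 0.05. With Benjamini-Hochberg adjustment and no fold limit, it called 717 (362 higher and 355 lower). No member value stood apart in its group by Dixon's test.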
